A study of Sus scrofa with 6 samples.

Results

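Monocyte and macrophage surface genes were examined in RNA-seq libraries of peripheral blood mononuclear cells (PBMCs) from wild-type and leptin transgenic pigs. The 9 genes CD14, CD163, CSF1R, LYZ, SIRPA, CD86, VCAN, MSR1 and ADGRE1 were taken by name, and a row was used when its symbol was identical to the name. The symbols picked out 8 of the 11564 genes in the table, and SIRPA was not analysed here. There were 3 wild-type (WT) libraries and 3 libraries labelled leptin-overexpressing, each from 1 Yorkshire pig aged 6 months. The transgenic pigs were made by somatic cell nuclear transfer from fetal fibroblasts that had been transfected with pig leptin and selected with drug. The study's methods name York pig embryos as the source of these cells, and its protocol a male Yorkshire fetus. The transgenic pigs may thus share a donor, which cannot be told apart from the label. The study's text places the transgene behind a leptin promoter, whereas its vector map draws a CMV promoter ahead of the cloning site, so the cells that express it cannot be told from these sources. The controls were nontransgenic pigs, and whether they too were cloned is not given in the sources used here.

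Blood monocytes are myeloid cells that leave the marrow, circulate briefly and can enter tissues to become macrophages. They sense microbial lipopolysaccharide through CD14, which hands it to TLR4 and its partner MD-2 (LY96), and they survive on CSF1 or IL34 acting on the receptor CSF1R. CD86 on antigen-presenting cells co-stimulates T cells through CD28. MSR1 and CD163 are scavenger receptors, for modified lipoproteins and for haptoglobin-haemoglobin respectively. ADGRE1 is the adhesion receptor known in the mouse as F4/80. LYZ (lysozyme) and VCAN (the proteoglycan versican) are secreted products that are abundant in monocytes and are not membrane proteins.

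All levels are FPKM (fragments per kilobase of transcript, scaled to sequencing depth), as deposited. For differences between labels, values were put on the log2(FPKM + 1) scale, and limma was fitted to the 10735 genes that reached 1 FPKM in 3 or more libraries, with Benjamini-Hochberg adjustment over all of them. In limma, 1 of the 10735 genes (0.00932%) had an adjusted p under 0.05 and 341 (3.18%) had an unadjusted p under 0.05, with 1.98% higher and 1.19% lower in leptin. The libraries of the 2 labels did not overlap for 7.63% of the genes. Of the 8 rows, 7 passed the filter, none of them had an adjusted or an unadjusted p under 0.05 in limma, and 1 (CD86) had no overlap between the labels. Each library is a separate animal, and with 3 against 3 the smallest 2-sided p that an exact permutation test can give is 0.1.

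Some libraries went against their labels or stood apart. The transgene is pig leptin, so that its RNA cannot be told apart from that of the pig's own gene in the LEP row. LEP was listed at 50.0, 0 and 0.118 FPKM in WT 1, WT 2 and WT 3. It was listed at 0, 18.3 and 39.3 FPKM in the leptin libraries 1, 2 and 3. Both replicate 1 libraries therefore had LEP levels opposite to their labels, and the differences of the tested rows are also given without them. The libraries are named by their labels throughout, so that "in leptin" and "in the wild type" refer to the libraries labelled so, and whether these 2 libraries had been exchanged was not tested. T cell, B cell, natural killer and monocyte markers were all detected, as the PBMC label implies. The neutrophil list (8 of its 15 symbols had a row, and none of those was at 0 in every library) summed to 3625 FPKM in WT 1 and to 451 to 1348 FPKM in the other 5 libraries. Summed T cell markers were lowest in leptin 2 (946 FPKM) and ranged from 1036 to 1622 FPKM elsewhere. The part of these cell type differences in the results below was not tested. In bulk RNA, fewer monocytes and less RNA per monocyte cannot be told apart.

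The levels spanned more than 2 orders of magnitude from LYZ to MSR1, and the ranges of several neighbouring rows overlapped. LYZ and CD14 were among the most abundant transcripts, at or above the 94.0th percentile of all genes in every library. CSF1R followed, between the 88.0th and 91.6th percentiles, and CD86 between the 75th and 81.6th. VCAN ranged from the 57.9th to the 81.1st percentile, and in WT 2 its level (29.7 FPKM) was close to that of CD86 (30.3 FPKM). ADGRE1 covered the widest span, from the 23.5th percentile in its lowest library to the 73.7th in its highest. The row labelled CD163 (7.14th to 16.3rd) and MSR1 (1.88th to 13.2nd) lay near the bottom. In every library LYZ, CD14, CSF1R, CD86, VCAN and ADGRE1 thus stood above MSR1 and the row labelled CD163, 2 scavenger receptors by name.

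**Figure D1:**
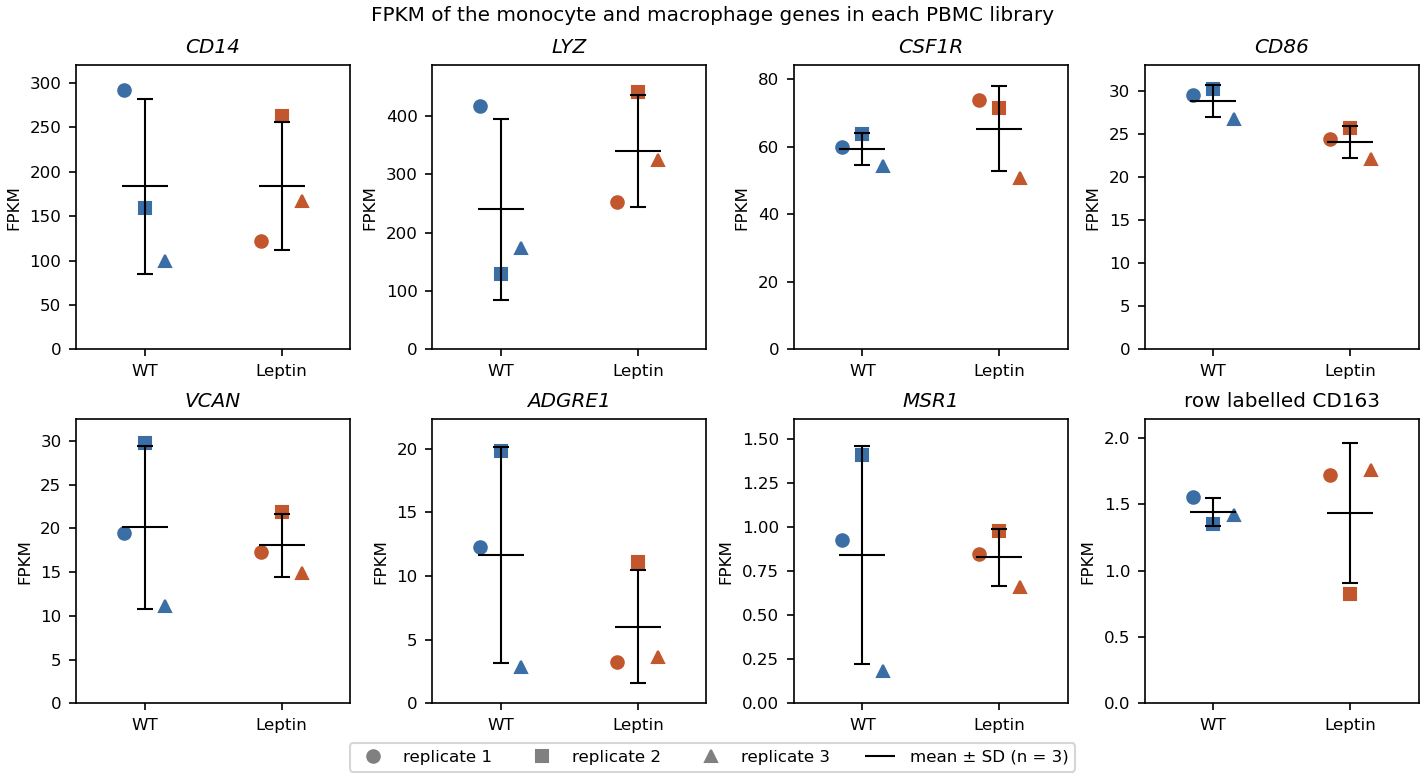
FPKM of each of the 8 rows (vertical axes, linear and starting at 0) in the 3 wild-type and 3 leptin transgenic libraries, with symbols for the replicate number and black bars for the mean ± SD (n = 3). The labels overlap for every gene except CD86, which lies between 22.2 and 25.7 FPKM in the leptin libraries and between 26.8 and 30.3 FPKM in the wild type.

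CD14, the co-receptor for lipopolysaccharide, had the same mean under both labels. The gene (ENSSSCG00000014369) lies at chr2:148291450-148293622 in the deposited coordinates. Its level was 291, 159 and 99.9 FPKM in WT 1, WT 2 and WT 3. It was 121, 263 and 166.5 FPKM in leptin 1, leptin 2 and leptin 3. WT 1 and leptin 2 were high and WT 3 and leptin 1 were low, so that each label held both a high and a low library. The means were 184 ± 98.0 and 184 ± 72.3 FPKM (SD, n = 3 each), and the log2 fold change (leptin minus WT, on log2(FPKM + 1), as throughout) was 0.07 ± 0.41 (SE), with a 95% interval of -0.88 to 1.01. The limma p was 0.877 (adjusted p = 0.997), and the exact permutation p was 0.9. The sign of the log2 fold change turned without WT 3 (-0.30) and without leptin 2 (-0.23). The spread of CD14 over the 6 libraries, an SD of 0.60 on the log2 scale, was larger than that of 95.9% of the tested genes. Without both replicate 1 libraries the log2 fold change was 0.73 (limma adjusted p = 0.999), and over all alternatives the adjusted p was at least 0.806.

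TLR4, the signalling receptor that CD14 serves, was 78.2, 114 and 22 FPKM in WT 1 to WT 3 and 25.4, 53.8 and 28.2 FPKM in leptin 1 to leptin 3. WT 2 was thus highest for TLR4 and only the fourth for CD14. The TLR4 log2 fold change was -0.77 ± 0.56 (SE; limma adjusted p = 0.993). Without WT 3 it was -1.46, with an unadjusted p under 0.05 and an adjusted p of 0.532 in limma, the lowest of any alternative. Without WT 2 it was -0.29, and without both replicate 1 libraries -0.36. LY96 was 106, 79.3 and 65.6 FPKM in WT 1 to WT 3 and 68.4, 112 and 69.6 FPKM in leptin 1 to leptin 3. As for CD14, WT 1 and leptin 2 were its highest libraries and leptin 1 and WT 3 its lowest. It had almost equal means of 83.7 ± 20.7 and 83.3 ± 24.7 FPKM (SD, n = 3; log2 fold change -0.02). Of the 6 lipopolysaccharide receptor partners tested (these 2 with MYD88, TIRAP, IRAK4 and IRAK1), 3 were higher and 3 lower in leptin, and none had an unadjusted p under 0.05.

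The nearest profiles to CD14 belonged to other myeloid genes. Likeness was measured as the mean absolute difference between log2(FPKM + 1) values centred on each gene's mean over the 6 libraries, among 8527 genes. OSCAR, an activating receptor of myeloid cells, was nearest at 0.0489 log2 units, with 28.9, 13.8 and 8.18 FPKM in the wild type and 9.91, 22.7 and 14.1 FPKM in leptin. Its order over the libraries was that of CD14. RETN, the cytokine resistin, came next at 0.0737. The summed neutrophil markers shared the highest libraries, WT 1 and leptin 2, with CD14, and S100A8 was 699 FPKM in WT 1 and 225 FPKM in leptin 2 against 66.5 to 120 FPKM in the others. Most of the sum in WT 1 came from S100A12 (1702 FPKM), S100A9 (1031 FPKM) and S100A8, which monocytes also express. LTF was 25.6, 7.47 and 2.48 FPKM in WT 1 to WT 3 and 3.49, 9.92 and 8.47 FPKM in leptin 1 to leptin 3. This was the order of CD14. PADI4 was also highest in WT 1 (96.4 FPKM) and leptin 2 (79.6 FPKM). MMP9, MMP8 and ELANE were ordered differently, and MMP9 was 59.7 FPKM in WT 1 and 225 FPKM in leptin 2. The part of neutrophil RNA in the CD14 order was not tested.

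LYZ, which cleaves bacterial cell walls, was higher on average in leptin, but the labels overlapped. The gene (ENSSSCG00000000492) lies at chr5:36179189-36185575. Its level was 418, 129 and 175 FPKM in WT 1 to WT 3, and 252, 442 and 325 FPKM in leptin 1 to leptin 3. WT 1 had the second highest value of all, whereas the other libraries labelled WT had the lowest values of the 6. The means were 240 ± 155 and 340 ± 95.6 FPKM (SD, n = 3), a log2 fold change of 0.64 ± 0.41 (SE; 95% interval -0.31 to 1.60). The limma p was 0.158 (adjusted p = 0.993) and the exact permutation p was 0.3, although 2.01% of the tested genes had a larger difference. The size of the difference turned on single libraries labelled WT. Without WT 2 the log2 fold change was 0.29. Without WT 1, the library with 50.0 FPKM of LEP and the highest neutrophil sum, it was 1.13, and without both replicate 1 libraries it was 1.33. The last 2 values had an unadjusted p under 0.05 in limma, while the adjusted p was at least 0.748 over all alternatives.

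The balance of LYZ and CD14 stood apart in WT 2. The LYZ level was 0.811 times that of CD14 in WT 2 and between 1.43 and 2.07 times in the others. WT 2 was also the library with the highest VCAN, ADGRE1, MSR1 and CD86. The profile nearest to that of LYZ was ACTA2, smooth muscle actin, at 0.149 log2 units, followed by G0S2, an inhibitor of lipolysis, at 0.178. G0S2 was 14, 4.31 and 5.15 FPKM in the wild type and 13.7, 17.4 and 11.2 FPKM in leptin.

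CSF1R, the receptor for the growth factor of monocytes, was steady. The gene (ENSSSCG00000014441) lies at chr2:157856238-157882290. It was 60.1, 63.8 and 54.3 FPKM in WT 1 to WT 3 and 73.8, 71.5 and 50.8 FPKM in leptin 1 to leptin 3. The highest value was only 1.45 times the lowest, against 2.92 times for CD14 and 3.42 times for LYZ, and both extremes were leptin libraries. The means were 59.4 ± 4.81 and 65.4 ± 12.7 FPKM (SD, n = 3), a log2 fold change of 0.12 ± 0.18 (SE; 95% interval -0.30 to 0.54; limma p = 0.528, adjusted p = 0.993, exact permutation p = 0.6). With single libraries left out the log2 fold change ran from 0.024 (without leptin 1) to 0.29 (without leptin 3), and it was 0.034 without both replicate 1 libraries. The ratio of CSF1R to CD14 accordingly ran from 0.206 in WT 1 to 0.608 in leptin 1. Both genes are used to mark monocytes, and in these pigs they ranked the libraries differently.

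Among the ligand and signalling genes of CSF1R, 4 of the 8 tested were higher and 4 lower in leptin. CSF1, the ligand, was expressed at a low level, with means of 1.81 ± 0.192 and 2.98 ± 1.10 FPKM (SD, n = 3) and a log2 fold change of 0.47 (limma adjusted p = 0.993). This value was 0.27 without leptin 3, 0.68 without leptin 2 (unadjusted p under 0.05) and 0.39 without both replicate 1 libraries. CBL, the ubiquitin ligase that ends receptor signalling, was 15.3, 11.7 and 10.2 FPKM in WT 1 to WT 3 and 7.6, 7.80 and 10.1 FPKM in leptin 1 to leptin 3. The labels did not overlap for CBL, by a margin set by WT 3 and leptin 3, and its log2 fold change was -0.49 (unadjusted p under 0.05, limma adjusted p = 0.993). Without both replicate 1 libraries the CBL value was -0.28, with an unadjusted p above 0.05, and leaving out WT 1, WT 2, leptin 1 or leptin 2 alone also took it above 0.05. IL34 was not analysed here.

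CD86 was the only row of the 8 whose 3 leptin values all lay below the 3 wild-type values, an order found for 2.63% of all tested genes. The gene (ENSSSCG00000011877) lies at chr13:148057107-148104960. Its level was 29.6, 30.3 and 26.8 FPKM in WT 1 to WT 3 and 24.5, 25.7 and 22.2 FPKM in leptin 1 to leptin 3. The groups were separated by the narrow gap between WT 3 and leptin 2. The means were 28.9 ± 1.87 and 24.1 ± 1.82 FPKM (SD, n = 3), a log2 fold change of -0.25 ± 0.14 (SE; 95% interval -0.57 to 0.07). The limma p was 0.113 (adjusted p = 0.993) and the exact permutation p was 0.1, the smallest possible. With every library scaled to the same total the unadjusted limma p fell under 0.05 (adjusted p = 0.999), and after median-of-ratios scaling the labels overlapped. The log2 fold change of CD86 was -0.24 without both replicate 1 libraries, with an unadjusted p above 0.05, and over all alternatives its adjusted p was at least 0.634.

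CD80, the other ligand of CD28, showed the same order with a larger difference. It was 12.1, 16.0 and 16.4 FPKM in WT 1 to WT 3 and 10.1, 7.6 and 10.6 FPKM in leptin 1 to leptin 3. The lowest library labelled WT (WT 1, with 50.0 FPKM of LEP) was above the highest labelled leptin. The means were 14.8 ± 2.34 and 9.42 ± 1.60 FPKM (SD, n = 3), a log2 fold change of -0.60 ± 0.18 (SE; unadjusted p under 0.05, limma adjusted p = 0.993). It kept an unadjusted p under 0.05 without both replicate 1 libraries (log2 fold change -0.78), and the adjusted p was at least 0.614 over all alternatives. CD28, the receptor, had means of 5.49 ± 3.02 and 6.44 ± 3.22 FPKM (SD, n = 3; log2 fold change 0.20, and -0.20 without WT 2), and its groups overlapped. CTLA4, its inhibitory counterpart, was below the filter and not tested, with means of 1.16 ± 0.376 and 0.798 ± 0.334 FPKM (SD, n = 3) and overlapping groups. B cells also express CD80 and CD86, and the summed B cell markers overlapped between the labels, at 427 to 783 FPKM in the wild type and 609 to 761 FPKM in leptin.

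**Figure D2:**
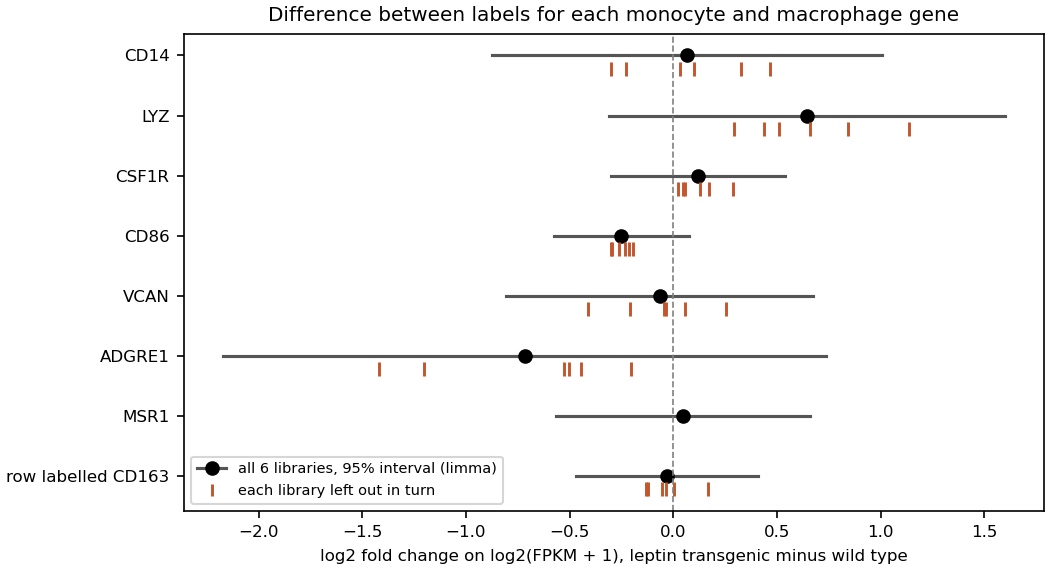
Log2 fold change (leptin minus wild type, on log2(FPKM + 1)) of each row with its 95% limma interval over all 6 libraries, and orange ticks for the value with each library left out in turn. Every interval includes 0, and the ticks of CD14, VCAN and the row labelled CD163 fall on both sides of 0. MSR1 was below the filter, so its value comes from the fit without one and has no ticks.

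VCAN, ADGRE1 and MSR1 were each highest in WT 2 and lowest in WT 3, so that the extremes of all 3 lay within the wild type. VCAN (ENSSSCG00000014136) lies at chr2:93783041-93895497 and was 19.5, 29.7 and 11.2 FPKM in WT 1 to WT 3 and 17.3, 21.9 and 14.9 FPKM in leptin 1 to leptin 3. The leptin values sat inside the wild-type range. The means were 20.1 ± 9.29 and 18.0 ± 3.58 FPKM (SD, n = 3), a log2 fold change of -0.07 ± 0.32 (SE; 95% interval -0.81 to 0.67; limma p = 0.843, adjusted p = 0.996, exact permutation p = 0.9). The log2 fold change turned to 0.25 without WT 2, and was -0.41 without WT 3 and -0.019 without both replicate 1 libraries. FAM111A (0.0802 log2 units) and LGMN, a lysosomal protease (0.0892), had the nearest profiles.

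The genes whose products bind versican or modify it were split evenly, with 4 of 8 higher and 4 lower in leptin and none at an unadjusted p under 0.05. CD44, the hyaluronan receptor, was 455, 498 and 270 FPKM in WT 1 to WT 3 and 255, 335 and 300 FPKM in leptin 1 to leptin 3. WT 1 and WT 2 were above all libraries labelled leptin and WT 3 was not, and the log2 fold change was -0.42 ± 0.25 (SE; limma adjusted p = 0.993). Without WT 3 it was -0.69, with an unadjusted p under 0.05 and an adjusted p of 0.614 in limma, the lowest of any alternative. Without WT 2 it was -0.25, and without both replicate 1 libraries -0.21.

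ADGRE1 had the largest SD of the rows on log2(FPKM + 1), a scale that compresses the spread of MSR1, whose highest value was 7.70 times its lowest. The gene (ENSSSCG00000013556) lies at chr2:72699547-72739564, and its level was 12.2, 19.8 and 2.85 FPKM in WT 1 to WT 3 and 3.27, 11.1 and 3.62 FPKM in leptin 1 to leptin 3. WT 1, WT 2 and leptin 2 lay at 11.1 FPKM or above and WT 3, leptin 1 and leptin 3 at 3.62 FPKM or below, a division that crossed the labels. The highest value was 6.96 times the lowest, and the SD of 1.04 on the log2 scale was larger than that of 99.0% of the tested genes. The means were 11.6 ± 8.50 and 6.00 ± 4.44 FPKM (SD, n = 3), a log2 fold change of -0.72 ± 0.63 (SE; 95% interval -2.17 to 0.74; limma p = 0.288, adjusted p = 0.993, exact permutation p = 0.6). The size of the difference turned on single libraries of both labels. It was -0.20 without WT 2, -0.45 without leptin 1 and -1.20 without leptin 2. Without WT 3 it was -1.42, with an unadjusted p under 0.05 and an adjusted p of 0.614 in limma, the lowest of any alternative. Without both replicate 1 libraries it was -0.26.

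TLR4 had the nearest profile to ADGRE1 of 8527 genes, at 0.128 log2 units, and it divided the pigs in the same way. TINAGL1 came next at 0.138, with 139, 170 and 40.6 FPKM in the wild type and 42.1, 132 and 59.0 FPKM in leptin. ADGRE5 (CD97), an adhesion receptor of most leukocytes, had the same 3 libraries highest, with 878, 780 and 596 FPKM in WT 1 to WT 3 and 541, 880 and 686 FPKM in leptin 1 to leptin 3, over a narrower range. ADGRG3 did so too, with 54.3, 27.4 and 25.3 FPKM in the wild type and 24, 56.9 and 21.8 FPKM in leptin. For ADGRG3, however, WT 2 lay close to WT 3 and far below WT 1 and leptin 2. EMR2 did not have the same libraries highest, since WT 3 (43.0 FPKM) was above WT 1 (35.6 FPKM). Its lowest value was 17.4 FPKM in leptin 1. All 5 adhesion receptors tested beside ADGRE1 (these 3, ADGRG1 and ADGRG5) had log2 fold changes below 0, and none had an unadjusted p under 0.05.

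MSR1 (ENSSSCG00000006979, at chr17:4110395-4191497) was barely detected in these blood cells. It was 0.930, 1.41 and 0.183 FPKM in WT 1 to WT 3 and 0.851, 0.978 and 0.660 FPKM in leptin 1 to leptin 3. Only WT 2 reached 1 FPKM, so that MSR1 was left out of the main test, and without the filter its log2 fold change was 0.05 ± 0.26 (SE; limma adjusted p = 0.996). Despite the low level, MSR1 ordered the 6 libraries exactly as VCAN did. Their centred profiles were the closest of the 28 pairs (0.119 log2 units), on log2(FPKM + 1), which compresses the spread of MSR1. In FPKM the highest value was 7.70 times the lowest for MSR1 and 2.66 times for VCAN, so this closeness depends on the scale. Among the other scavenger receptor genes, CD36 was low (0.714 to 3.09 FPKM) and MARCO reached 1 FPKM only in leptin 2 (1.09 FPKM). CXCL16, a membrane chemokine that also binds oxidised lipoprotein, was 11.9, 16.7 and 10.3 FPKM in WT 1 to WT 3 and 16.5, 19.5 and 17.2 FPKM in leptin 1 to leptin 3. WT 2 was just above leptin 1, and the CXCL16 log2 fold change was 0.45 (unadjusted p under 0.05, limma adjusted p = 0.993). Without both replicate 1 libraries it was again 0.45, with an unadjusted p above 0.05. The CXCL16 p was also above 0.05 without any single library other than WT 2. So it was with a pseudocount of 0.1, without the filter, with median-of-ratios scaling, with the same total in each library and with unmoderated variances.

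The row labelled CD163 could not be read as CD163. Its identifier, ENSSSCG00000010787, at chr14:153627204-153637191, is named SCART1 in the reference table of gene names, which gives CD163 another identifier, ENSSSCG00000033146, not analysed here. SCART1 belongs to the same family of cysteine-rich scavenger receptors and is known from γδ T cells. The row was 1.55, 1.35 and 1.42 FPKM in WT 1 to WT 3 and 1.72, 0.824 and 1.76 FPKM in leptin 1 to leptin 3. Leptin 2, one of the highest libraries for CD14 and LYZ, was the lowest for this row. The log2 fold change was -0.03 ± 0.19 (SE; 95% interval -0.47 to 0.41; limma p = 0.885, adjusted p = 0.997, exact permutation p = 1), and it was 0.17 without leptin 2 and -0.089 without both replicate 1 libraries. The order of the libraries was that of the summed T cell markers except that WT 1 and WT 3 changed places, with the sums at 1380, 1036 and 1431 FPKM in the wild type and 1576, 946 and 1622 FPKM in leptin. The nearest profile was FOXO1, a transcription factor active in resting lymphocytes (0.0311 log2 units), and CDH24 came next at 0.0359. For the other 7 rows the reference table gave the same symbol in 6 and had no entry for ADGRE1.

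HP (haptoglobin), whose complex with haemoglobin is the ligand of CD163, was 23.1, 12.8 and 14.2 FPKM in the wild type and 9.34, 14.6 and 13.3 FPKM in leptin. The highest and lowest values were those of the replicate 1 libraries, and the log2 fold change was -0.38 (limma adjusted p = 0.993). It was -0.13 without WT 1, -0.20 without leptin 1 and 0.04 without both. None of the 7 rows for haptoglobin and haem iron handling had an unadjusted p under 0.05. SIRPA itself was not analysed here, but related genes and partners were listed. SIRPB1, a close relative whose reads can be shared with SIRPA, was 272, 251 and 165 FPKM in WT 1 to WT 3 and 230, 113 and 195 FPKM in leptin 1 to leptin 3. Its log2 fold change was -0.38 (limma adjusted p = 0.993) and -0.45 without both replicate 1 libraries, and the value is uncertain as to which SIRP gene it counts. CD47, the ligand of SIRPA, was found in 2 rows with log2 fold changes of 0.14 and 0.17, and PTPN6, the phosphatase that SIRPA recruits, stayed within 401 to 523 FPKM.

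**Figure D3:**
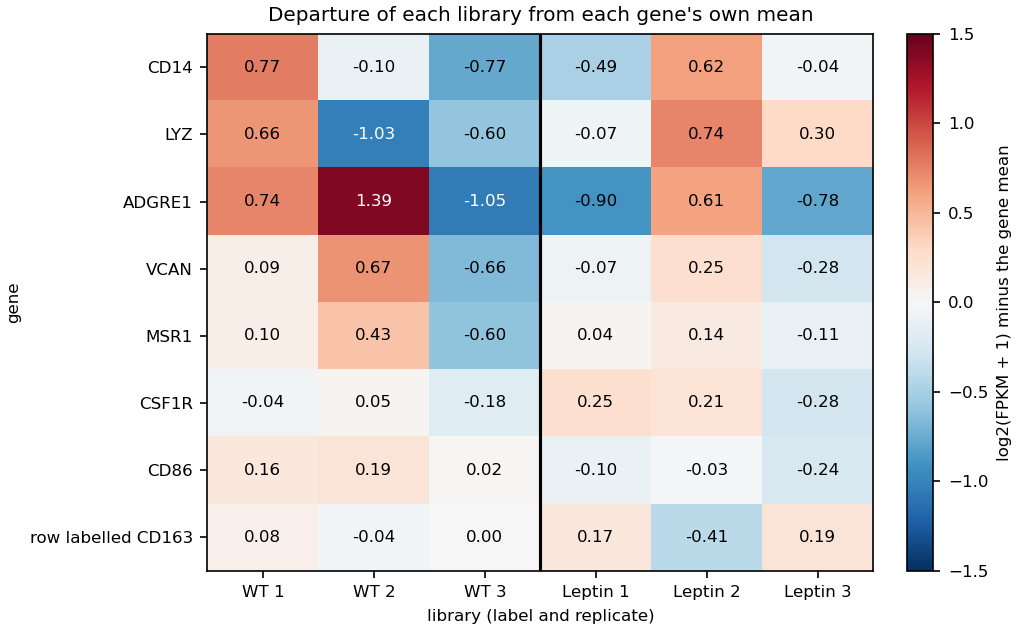
Departure of each library (columns, 3 wild type then 3 leptin) from each gene's own mean on log2(FPKM + 1), in log2 units, red above and blue below. WT 3 reaches -1.05 for ADGRE1 and is above the mean for 2 of the 8 rows, leptin 2 is above it for 6, and CD86 is the only row with one sign on each side of the black line.

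Viewed by library, the 8 rows divided the pigs across the labels. WT 1 was above the gene mean for 7 of the 8 rows and leptin 2 for 6, whereas WT 3 and leptin 3 were above it for 2 each. WT 2 had the highest value for 4 of the 8 rows and WT 3 the lowest for 4. Over all tested genes WT 2 was highest for 12.9% and WT 3 lowest for 7.95%. Over the 8 rows WT 1 and leptin 2 were the most alike of the 15 pairs of libraries (mean absolute difference 0.185 log2 units), and WT 3 and leptin 2 the least alike (0.860). Over all tested genes the most alike pair was WT 3 and leptin 1 (0.198), again 1 library of each label. The median SD of the 7 tested rows was 0.46 on the log2 scale, against 0.22 over all tested genes. Their median absolute log2 fold change was 0.12, against 0.13 over all tested genes, with 3 rows higher and 4 lower in leptin.

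The wider set of monocyte and macrophage genes included CEBPA, the 1 gene of 33 for which the labels did not overlap, against 7.63% of all tested genes. Of 33 tested, 22 were higher and 11 lower in leptin, 2 had an unadjusted p under 0.05 and none an adjusted p under 0.05. Over all tested genes 63.1% were higher in leptin and 3.18% had an unadjusted p under 0.05, against 66.7% higher in this list (median log2 fold change 0.03, against 0.06 over all tested genes). CEBPA, a transcription factor required for the myeloid lineage, was 13.2, 11.9 and 14.3 FPKM in WT 1 to WT 3 and 25.2, 26.6 and 20.8 FPKM in leptin 1 to leptin 3. The lowest leptin value was above the highest wild-type value, with a log2 fold change of 0.83 ± 0.16 (SE; 95% interval 0.47 to 1.19), yet the limma adjusted p was 0.993. The value stayed between 0.71 and 0.93 over all alternatives, and was 0.80 without both replicate 1 libraries. Its adjusted p was at least 0.46 throughout. AIF1 (IBA1), an actin-bundling protein of macrophages, had a log2 fold change of 0.54 (limma adjusted p = 0.993). Its unadjusted p was above 0.05 without WT 1, WT 3, leptin 2 or leptin 3. That p was also above 0.05 with median-of-ratios scaling, with the same total in each library and with unmoderated variances. The AIF1 value was 0.60 without both replicate 1 libraries. The list was highest in leptin 2 for 15 of the 33 genes and lowest in WT 3 for 13. Over all tested genes leptin 2 was highest for 14.8% and WT 3 lowest for 7.95%.

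**Figure D4:**
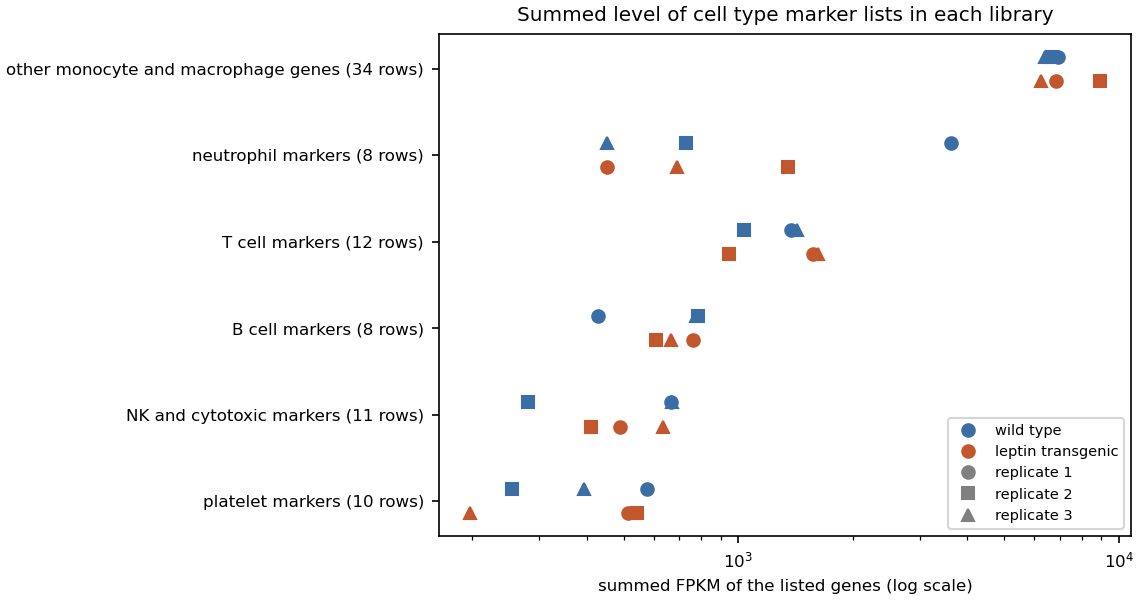
Summed FPKM of marker lists of blood cell types in each library (horizontal log axis), blue for wild type and orange for leptin, with symbols for the replicate number and the number of rows summed in brackets. The neutrophil sum of WT 1 (3625 FPKM) stands far to the right of the other 5 libraries (451 to 1348 FPKM), while the monocyte sums lie between 6257 and 8926 FPKM.

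The summed monocyte list ranged only from 6257 to 6920 FPKM in 5 libraries and was 8926 FPKM in leptin 2. The sums of platelet markers (197 to 574 FPKM) and natural killer markers (280 to 671 FPKM) also overlapped between the labels. Over the 8 lists of ligands, signalling partners and relatives, 53 genes passed the filter, 27 with a positive and 26 with a negative log2 fold change, while 63.1% of all tested genes were positive. Their libraries did not overlap between labels for 4 genes (7.55%), next to 7.63% of all genes, and 3 genes (CBL, CD80 and CXCL16, 5.66%) had an unadjusted p under 0.05, next to 3.18% of all genes.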

How the data were processed

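PBMC RNA from 3 wild-type and 3 leptin-overexpressing pigs had been sequenced with paired 101 bp reads. The authors deposited 1 table of FPKM values per gene and library, with symbols, coordinates and annotation terms. The paper's methods name Bowtie against the Ensembl version 75 transcriptome, RSEM and maSigPro, whereas the submitters' processing notes name FastQC, STAR 2.5, Cuffnorm and DESeq 1.22.1. Which of them made the FPKM values, and the genome build, are not given in the sources used here. The table holds no read counts, so that the depth behind each value is unknown. Its columns of the authors' own fold changes, p-values and calls were not used.

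Groups came from the labels. Values were analysed as log2(FPKM + 1) with limma 3.58.1 in R 4.3.3 (empirical Bayes moderation, Benjamini-Hochberg adjustment over all 10735 genes with at least 1 FPKM in 3 libraries). Fold changes on this scale understate the change of low genes. The exact permutation tests (2-sided) and summaries used Python 3.11.15, SciPy 1.17.1 and pandas 2.3.3. On simulated data with 200 of 10735 genes changed by 2 log2 units in independent normal noise, limma recovered 185 and made 13 false calls. The planted change was larger than the difference of any row (at most 0.72 in size). Recovery of smaller changes was not simulated. Named genes were all rows found, their ligands and main partners, and list genes with an unadjusted p under 0.05. They also included the 2 nearest profiles with a symbol and at most 2 leading genes of a marker list. For the neutrophil list, more genes are named beside CD14. The genes and the 16 gene lists were chosen with earlier results of these data known. The reference table of gene names matched 7417 of the 11564 identifiers.

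Alternatives were a pseudocount of 0.1, no filter, 1 FPKM in every library, 2 other scalings, unmoderated variances, a replicate block and each library left out. Leaving out both replicate 1 libraries was added after the LEP values were seen.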

Additional observations from a re-analysis of the deposited data

How the results depend on the processing

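With 3 pigs a label, an unknown read depth and LEP levels opposite to the labels in both replicate 1 libraries, small differences between labels could not be resolved. No row had an adjusted p under 0.05 under any alternative that could be fitted to it. MSR1 passed the filter only without one and with median-of-ratios scaling, and the row labelled CD163 had no value with 1 FPKM required in every library. The number with an unadjusted p under 0.05, 0 in the main fit, was 1 with the same total in each library (CD86), 1 with unmoderated variances (CD86) and 1 without both replicate 1 libraries (LYZ, an alternative chosen after seeing the data), and 0 to 1 with each library left out. The number with no overlap was 0 with median-of-ratios scaling (9.88% of all genes), 3 without both replicate 1 libraries (25.9% of all genes), and 1 to 2 with each library left out (12.3% to 26.8% of all genes). Over all genes, the number with an adjusted p under 0.05 was 0 with a minimum of 1 FPKM in every library, 0 with unmoderated variances, 2 with the replicate block, 0 without both replicate 1 libraries and 0 to 3 with each library left out, and that with an unadjusted p under 0.05 was 247 to 846 with each library left out and 242 without both replicate 1 libraries. Over the partner and marker lists, the number with an unadjusted p under 0.05 was 7 of 138 in the main fit (341 of all genes), 4 of 138 with median-of-ratios scaling (416), 4 of 138 with the same total (382), 2 of 138 with unmoderated variances (345) and 5 to 14 with each library left out, the 14 of 136 without WT 3 (846).

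The replicate numbers did not pair the pigs (mean correlation -0.052, range -0.28 to 0.13), and the block changed no call among the 7 rows tested (ADGRE1 p = 0.0510). With the block, among the named partners, TLR4 came under an unadjusted p of 0.05 in limma and CBL rose above it. Scaling to the same total moved the median log2 fold change of all genes by -0.11, and the share of higher genes among those with an unadjusted p under 0.05 from 62.5% to 21.5% (40.1% with median-of-ratios scaling). Changes of sign, whose cause was not tested, occurred for CD14 (-0.00034 with median-of-ratios scaling, -0.063 with the same total, and -0.30 to 0.47 with each library left out) and CSF1R (-0.0073 with the same total). With each library left out, the row labelled CD163 ran from -0.13 to 0.17 and VCAN from -0.41 to 0.25, and the partners crossed 0 likewise, LY96 (-0.25 to 0.17, and 0.29 without both replicate 1 libraries), CD47 (-0.067 to 0.35 and -0.054 to 0.32 for its 2 rows) and CD28 (-0.20 to 0.62, and -0.0029 without both). HP was 0.044 without both replicate 1 libraries, and PTPN6 was -0.014 with the same total.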

Other observations

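Dendritic cells are also antigen-presenting cells of PBMCs. Of their 7 tested marker genes, 2 had an unadjusted p under 0.05, both higher in leptin. Over all tested genes, 3.18% had such a p, and 1.98% had such a p and were higher in leptin. Of the 7 markers, 4 were higher and 3 lower in leptin. FCER1A, the alpha chain of the high-affinity IgE receptor, was 18.3, 26.1 and 33.0 FPKM in WT 1 to WT 3 and 44.3, 87.7 and 34.7 FPKM in leptin 1 to leptin 3. The labels did not overlap, by a small margin between WT 3 and leptin 3, and the log2 fold change was 1.01 (limma adjusted p = 0.993). BATF3, a transcription factor of conventional dendritic cells, was much lower, with 0.885, 1.51 and 1.26 FPKM in the wild type and 1.88, 2.87 and 1.54 FPKM in leptin (log2 fold change 0.47, limma adjusted p = 0.993). Without both replicate 1 libraries the log2 fold changes were 0.89 for FCER1A and 0.39 for BATF3, both with an unadjusted p above 0.05. Leptin 2 was highest for 4 of these 7 genes, and for 14.8% of all tested genes.

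The sum of the 3 rows for erythroid markers varied about 10.1-fold between libraries, from 21.8 FPKM in leptin 1 to 219 FPKM in WT 1. This range came from HBB, at 17.7 FPKM in leptin 1 and 211 FPKM in WT 1. ALAS2 stayed within 3.85 to 6.86 FPKM and was highest in leptin 2, and HBM stayed within 0 to 1.78 FPKM. CEBPB, a transcription factor of the same family as CEBPA, was 182, 132 and 41.6 FPKM in WT 1 to WT 3 and 40.8, 106 and 54.9 FPKM in leptin 1 to leptin 3. WT 1, WT 2 and leptin 2 were high for CEBPB, the same 3 libraries as for ADGRE1 and TLR4, and its log2 fold change was -0.68 (limma adjusted p = 0.993). Without both replicate 1 libraries it was 0.04. CEBPB was picked out after its values were seen.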
